A study of Mus musculus with 48 samples.

Results

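The Nubp1, Ciita and Socs1 locus is a 475 kb stretch of mouse chromosome 16 that holds the neighbouring genes Nubp1, Ciita, Dexi, Clec16a and Socs1. It was followed in 42 libraries of H3K27ac, a histone mark of active promoters and enhancers, from cardiac macrophages and monocytes. The members are these 5 of the 21911 protein-coding genes annotated, taken with everything from 50 kb before the Nubp1 start to 50 kb behind the Socs1 gene, a stretch of 95 bins of 5 kb. The locus was chosen because the H3K27ac signal around Nubp1 was lower after infarction than after sham surgery in P10 hearts at day 3, so the values of that comparison are given as a description, with no test. The question was which elements of the locus carry that difference, and whether it reaches Ciita.

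The cells were sorted as positive for CD45, a marker of leukocytes, and F4/80, a marker of macrophages, from hearts of C57BL/6 mice. Myocardial infarction (MI) was induced by tying the left anterior descending coronary artery on postnatal day 1 (P1), when the heart regenerates, or on day 10 (P10), when it does not; sham mice had the same operation without the ligature. At 3 or 7 days after surgery each heart was divided into the infarct zone (IZ), the border zone around it (BZ) and a zone remote from it (RZ), or the matching zones of sham hearts, and the same zone of several hearts was pooled before sorting. Age, surgery, day and zone make 24 groups of 2 libraries each, apart from the 6 groups of P1 at day 3, which have 1 library each. No mouse carried a transgene or other treatment by the labels. Libraries of 3 zones that share an age, surgery, day and replicate number were taken as 1 pool of hearts. The labels do not state this. The 6 libraries of an arm (an age, surgery and day over its zones) thus stand for 2 pools, and p-values measure only the spread between these libraries.

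Ciita encodes the master transactivator that switches on the MHC class II genes, through which macrophages, dendritic cells and B cells present antigen to T cells; interferon gamma induces it in macrophages, and it is transcribed from alternative promoters in different cell types. Socs1 encodes an inhibitor of Janus kinases that is itself induced by interferon gamma and cuts that signal short. Nubp1 encodes a factor in the assembly of cytosolic iron-sulfur proteins, Clec16a a membrane-associated regulator of mitophagy, and Tvp23a, which lies between Nubp1 and Ciita, a Golgi membrane protein. Dexi was named as a transcript induced by dexamethasone.

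All positions are in mm10 with the GENCODE M21 annotation. Nubp1 (ENSMUSG00000022503.10) runs forward from 10411948 to 10424428, and Tvp23a runs backward from 10447362 to 10420557, so that the 2 genes overlap at their ends. Ciita (ENSMUSG00000022504.10) runs forward from 10480059 to 10528418 and has annotated transcript starts at 10480059 and 10480164, at 10488279, and from 10489746 to 10489783. Dexi (ENSMUSG00000038055.12) runs backward from 10543054 to 10502531 and overlaps the Ciita gene. Clec16a (ENSMUSG00000068663.14) starts at 10545339 on the other strand and ends at 10744878, with the antisense gene Gm15558 inside it, and Socs1 (ENSMUSG00000038037.5) runs backward from 10785536 to 10782240. Behind Socs1 lie the sperm chromatin genes Tnp2, Prm3, Prm2 and Prm1 and the start of Rmi2, a DNA repair gene, at 10835059. H3K27ac reads carry no strand of transcription, so a pair in an overlap cannot be given to either gene.

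The locus held 12 of the 23079 H3K27ac regions of the genome. They were called from all 24 groups with equal weight and together made up 26.0 kb, or 5.47% of the locus. Summed by arm, they held between 29.9% (P1 sham day 3) and 43.9% (P10 sham day 3) of its pairs. Most pairs thus lay outside these regions. Named after their place, they were the Nubp1 promoter (10411501 to 10413000), the Nubp1 gene body (10416001 to 10420000, intron but for 102 bases of exon), the Tvp23a intron (10432501 to 10438000, no exon), a small intronic region of Tvp23a (10440501 to 10441500), an intergenic region upstream of Tvp23a (10452001 to 10453000) and an intergenic region upstream of Ciita (10475001 to 10477000, its centre 4.06 kb before the first Ciita start). Next came the first Ciita start (10480001 to 10480500), a Ciita intron (10482501 to 10483000) and the later Ciita starts (10488501 to 10490000). The region of the later starts does not hold the annotated start at 10488279. The last were the shared Dexi-Clec16a promoter (10542001 to 10547000), the Socs1 promoter (10784501 to 10787500) and the Rmi2 start (10835001 to 10835500). Neighbouring gene windows share regions, so the members are not independent measurements.

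Libraries held between 48077 and 1008924 read pairs, with a median of 412015.5, and the whole locus drew between 10 and 344 pairs per library, with a median of 125.0. Values are CPM, read pairs per 1000000 pairs of the library. At P10 day 3 the sham libraries held 368724 to 853744 pairs and the MI libraries 137589 to 755715, and the share of pairs in H3K27ac regions was 39.2% to 52.9% and 42% to 55.0%. Genes that mark the sorted cells (Adgre1, Csf1r, Ptprc and Spi1) were covered in these libraries, with a summed signal of 1043 to 1497 CPM in sham and 854 to 1461 CPM in MI, whereas a list of 5 genes of non-leukocytes summed to 21.7 to 41.5 and 14.5 to 37.2 CPM in regions. Pdgfra has no pair in a region in either arm, and with all pairs in the windows the non-leukocyte list summed to 185 to 261 and 171 to 307 CPM. In libraries pooled over cells, fewer cells of a type and less signal per cell cannot be told apart.

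The sequences of the elements that the comparisons turn on are shown first. For the promoters these are the 250 bases before to 30 bases after the start from the RefSeq table (GRCm38.p6), which held Nubp1, Dexi, Clec16a and Socs1; Ciita is named only. For the Nubp1 gene body, the Tvp23a intron and the region upstream of Ciita they are the 300 bases of the RefSeq genome of the same build around the strongest part of the region. Capitals mark matches, on either strand, to 3 motifs: TTCNNNGAA (STAT factors), GAAANNGAA (interferon response) and GAGGAA (ETS factors such as PU.1). The last is longer than the GGAA core of ETS sites, so a stretch without it can still hold that core.
Nubp1 promoter, chr16:10411688-10411967, plus strand: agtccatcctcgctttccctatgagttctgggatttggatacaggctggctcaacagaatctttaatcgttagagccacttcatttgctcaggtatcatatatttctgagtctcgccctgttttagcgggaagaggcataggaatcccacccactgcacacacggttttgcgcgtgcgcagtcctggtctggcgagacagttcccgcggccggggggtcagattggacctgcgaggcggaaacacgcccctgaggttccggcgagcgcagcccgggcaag
Dexi promoter, chr16:10543025-10543304, minus strand: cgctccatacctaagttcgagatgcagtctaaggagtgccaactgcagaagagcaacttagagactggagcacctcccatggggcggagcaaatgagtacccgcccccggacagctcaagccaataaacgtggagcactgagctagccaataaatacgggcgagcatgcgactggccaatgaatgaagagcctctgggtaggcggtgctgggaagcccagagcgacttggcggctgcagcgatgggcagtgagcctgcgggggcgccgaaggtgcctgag
Clec16a promoter, chr16:10545089-10545368, plus strand: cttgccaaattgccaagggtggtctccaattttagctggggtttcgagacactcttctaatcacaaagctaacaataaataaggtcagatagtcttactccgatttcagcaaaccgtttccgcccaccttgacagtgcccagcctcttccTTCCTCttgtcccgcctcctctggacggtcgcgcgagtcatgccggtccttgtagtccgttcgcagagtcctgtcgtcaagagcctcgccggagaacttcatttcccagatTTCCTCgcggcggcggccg
Socs1 promoter, chr16:10785507-10785786, minus strand: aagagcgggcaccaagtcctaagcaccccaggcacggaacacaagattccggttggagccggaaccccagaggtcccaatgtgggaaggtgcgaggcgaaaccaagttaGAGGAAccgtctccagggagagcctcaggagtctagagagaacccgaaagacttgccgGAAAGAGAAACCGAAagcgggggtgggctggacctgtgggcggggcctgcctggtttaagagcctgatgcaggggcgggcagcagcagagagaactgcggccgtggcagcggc
Nubp1 gene body, chr16:10418101-10418400, plus strand: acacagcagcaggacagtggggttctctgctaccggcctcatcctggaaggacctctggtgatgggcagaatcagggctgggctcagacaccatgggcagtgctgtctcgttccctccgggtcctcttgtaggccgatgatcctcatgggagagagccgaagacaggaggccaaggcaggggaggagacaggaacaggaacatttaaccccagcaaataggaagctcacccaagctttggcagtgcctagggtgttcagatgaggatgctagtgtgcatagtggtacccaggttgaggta
Tvp23a intron, chr16:10433601-10433900, plus strand: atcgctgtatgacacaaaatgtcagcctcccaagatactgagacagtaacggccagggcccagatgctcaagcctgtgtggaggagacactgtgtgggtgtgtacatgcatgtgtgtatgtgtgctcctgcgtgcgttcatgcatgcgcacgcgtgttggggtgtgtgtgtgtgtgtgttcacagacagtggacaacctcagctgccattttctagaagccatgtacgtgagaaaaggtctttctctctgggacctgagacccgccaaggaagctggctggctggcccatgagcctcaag
Upstream of Ciita, chr16:10475601-10475900, plus strand: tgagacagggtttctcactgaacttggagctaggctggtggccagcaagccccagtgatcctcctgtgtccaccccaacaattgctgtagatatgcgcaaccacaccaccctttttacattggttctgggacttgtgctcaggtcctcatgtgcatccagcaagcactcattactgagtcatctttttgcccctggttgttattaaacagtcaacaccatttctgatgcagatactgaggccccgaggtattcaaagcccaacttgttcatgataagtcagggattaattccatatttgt

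The Socs1 promoter held 2 overlapping interferon response matches, GAAAGAGAA at position -83 and GAAACCGAA at -77 counted from the start, and 1 ETS match at -141. The Clec16a promoter held 2 ETS matches on the minus strand, at -100 and 11. The other 5 stretches held none of the 3 motifs, and no stretch held the STAT motif. Of 32851 promoters of 280 bases in the table, 7.83% held the STAT motif, 8.06% the interferon response motif and 26.0% the ETS motif. Of 23077 stretches of 300 bases at the H3K27ac regions the shares were 7.80%, 8.02% and 33.9%. A match describes these letters and is not a measured binding site.

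**Figure D1:**
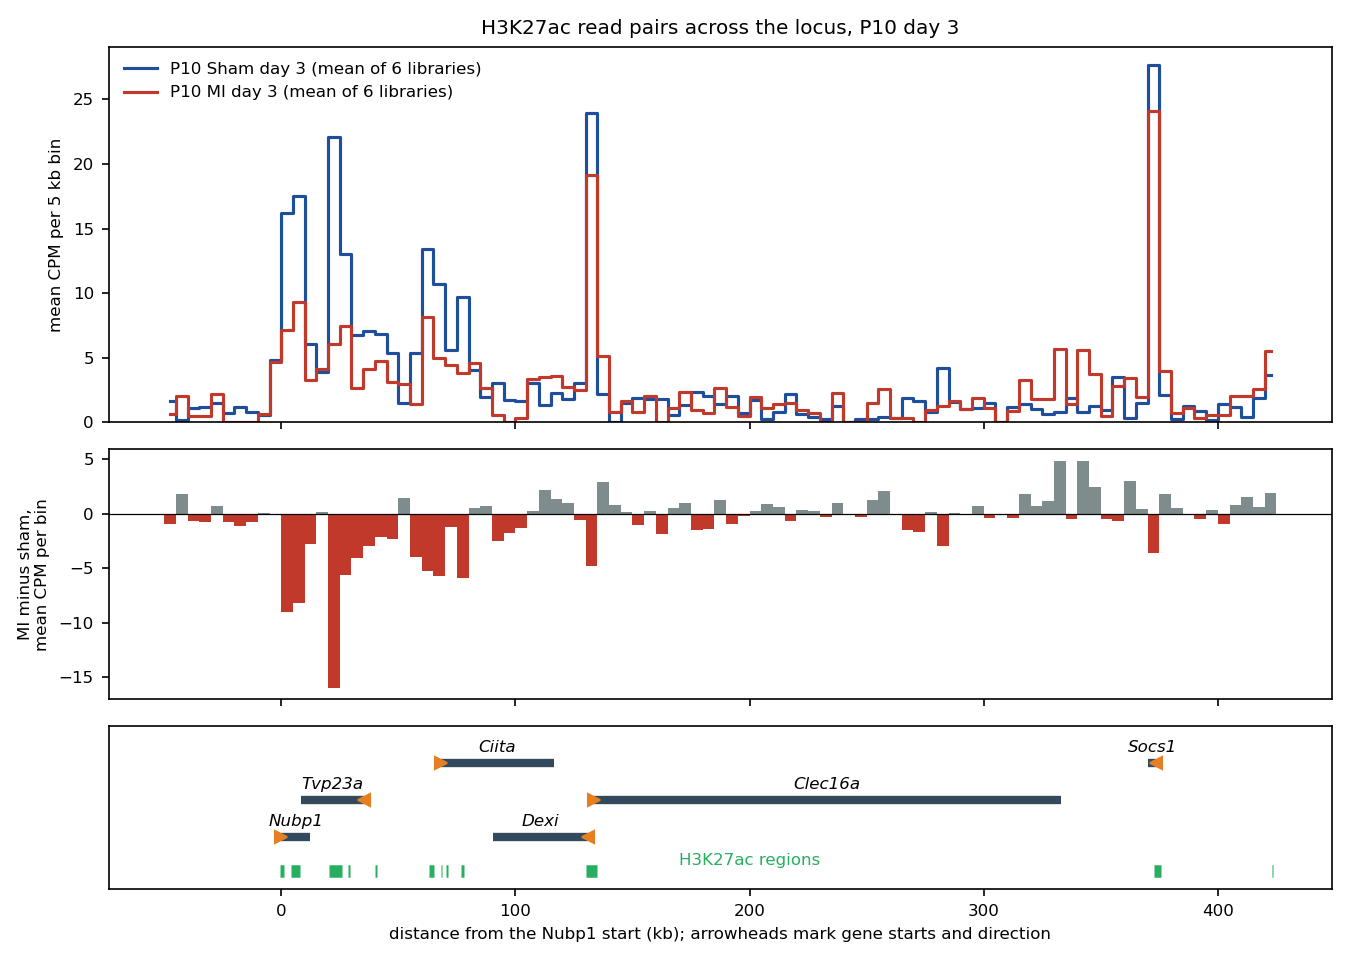
Mean CPM per 5 kb bin over the 6 sham (blue) and 6 MI (red) libraries of P10 day 3 (top), the difference of the means (middle, red where MI was lower), and the genes and the 12 H3K27ac regions (bottom), against the distance from the Nubp1 start in kb. The deepest differences lie between the Nubp1 start and Ciita, and the bins of Clec16a and beyond lie on both sides of 0.

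At P10 day 3, the mean H3K27ac signal was lower after MI from the Nubp1 start onwards to Ciita, and in CPM mainly in 2 elements, one in the body of Nubp1 and one in an intron of Tvp23a. Together these 2 regions had a mean that went from 48.6 ± 8.47 CPM in sham (SD, n = 6) to 16.8 ± 11.4 in MI, 52.8% of the difference over the locus. In the 12 regions the mean was 134 ± 13.7 CPM in sham and 76.1 ± 18.1 in MI, 1.76-fold higher in sham, and the groups did not overlap (116 to 150 against 46.6 to 95.6). Outside the regions the mean was 177 ± 43.5 CPM in sham and 174 ± 45.3 in MI. The regions thus held 96.4% of the net difference between the arms and the remaining sequence 3.60%, but the latter is a sum of opposite parts. Outside the regions MI had the lower mean from the locus start to the end of Ciita, 70.9 ± 30.4 against 99.9 ± 21.6 CPM, and the higher one from there to the locus end, 104 ± 29.7 against 76.8 ± 26.9, with overlapping ranges in both. Over the whole locus the means were 311 ± 46.3 and 251 ± 55.7 CPM, the ranges overlapped, and MI was lower in 5 of 6 comparisons of libraries of the same zone and replicate number. MI and sham hearts are different animals, matched here only by zone and replicate number, so these tallies of 6 are a description. The log2 ratio over the locus was -0.31 and ranged from -0.41 to -0.23 with each library left out and from -0.53 to -0.11 under the other alternatives. Each share of the difference divides by this net value and would move with it, so the shares describe these 12 libraries and have no error of their own.

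The Nubp1 gene body region had a lower mean in MI, most of all in the IZ and BZ. In sham it stood at 25.8 CPM (IZ replicate 2), 24.2 (IZ 3), 31.6 (BZ 2), 34.1 (BZ 3), 20.7 (RZ 2) and 8.14 (RZ 3). In MI it stood at 2.11 CPM (IZ 2), 5.63 (IZ 3), 3.88 (BZ 2), 15.9 (BZ 3), 18.6 (RZ 2) and 7.27 (RZ 3). The groups overlapped through 1 sham library, RZ 3, and the other 5 lay above every MI library. The means were 24.1 ± 9.24 and 8.89 ± 6.74 CPM, a log2 ratio of -1.44 and 25.3% of the difference over the locus, from 87 read pairs in sham and 27 in MI. By zone the log2 ratio was -2.70 in the IZ, -1.73 in the BZ and -0.16 in the RZ.

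The Tvp23a intron region, 23.3 kb behind the Nubp1 start, separated the arms without overlap. Its sham libraries held 22.8 CPM (IZ 2), 19.8 (IZ 3), 21.1 (BZ 2), 26.3 (BZ 3), 29.8 (RZ 2) and 27.1 (RZ 3). Its MI libraries held 8.42 CPM (IZ 2), 14.1 (IZ 3), 0 (BZ 2), 11.9 (BZ 3), 13.0 (RZ 2) and 0 (RZ 3). The 2 libraries at 0 were shallow, and a count of 0 there allows up to 11.6 CPM in BZ 2 and 21.8 CPM in RZ 3, which is above the lowest sham library. The means were 24.5 ± 3.86 and 7.90 ± 6.41 CPM, a log2 ratio of -1.63, or 27.5% of the difference over the locus, from 85 and 25 pairs. By zone the log2 ratio was -0.92 in the IZ, -1.99 in the BZ and -2.13 in the RZ, so the 2 main elements differed in which zone was lowest; this order was not tested.

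The Nubp1 promoter itself differed less than the element in its gene body. It held 7.44 ± 5.06 CPM in sham (1.52 to 13.2) and 5.63 ± 3.20 in MI (0 to 8.42), was lower in MI in 3 of 6 matched comparisons, and made up 3.01% of the difference. Per kilobase, where regions of unequal length can be compared, the Nubp1 promoter went from a level of 4.96 to 3.75 CPM per kb, the gene body from 6.03 to 2.22 and the Tvp23a intron from 4.45 to 1.44. The largest difference per kilobase was that of the short region upstream of Tvp23a, from 5.21 to 1.01 CPM per kb. This region had 5.21 ± 2.19 CPM in sham and 1.01 ± 1.68 in MI, lower in 6 of 6 comparisons and 6.97% of the difference, but from only 17 and 4 pairs. Its log2 ratio of -2.36 ran from -3.63 to -2.10 with each library left out and from -2.76 to -0.69 under the other alternatives. The small intronic region of Tvp23a had 3.31 ± 2.98 and 1.40 ± 3.44 CPM, with all 4 of its MI pairs in the IZ replicate 2 library.

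**Figure D2:**
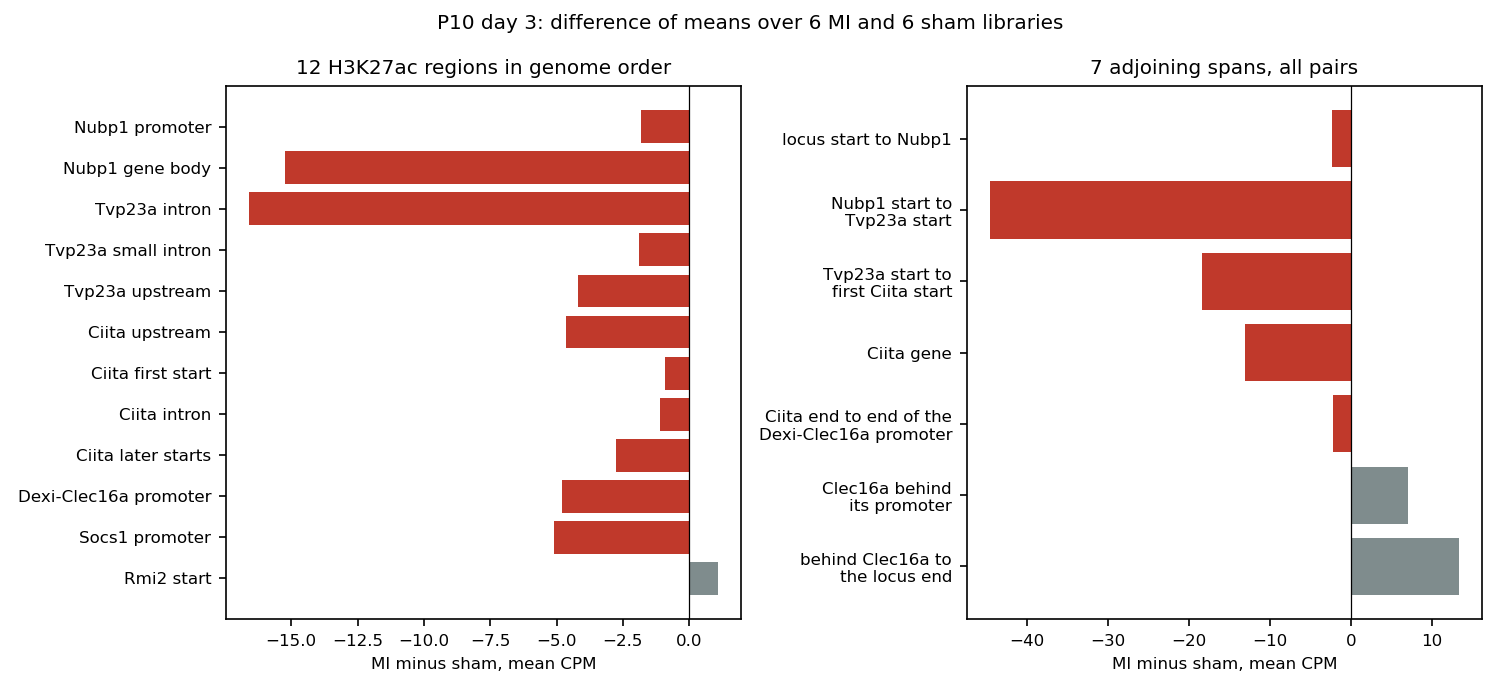
Difference of the mean CPM, MI minus sham, over 6 MI and 6 sham libraries of P10 day 3, for the 12 H3K27ac regions in genome order (left) and for 7 adjoining spans that together make up the locus, counting all pairs (right). The bars of the Nubp1 gene body and the Tvp23a intron, at -15.2 and -16.6 CPM, are the longest of the regions, and the 2 spans from Clec16a to the locus end lie above 0.

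Upstream of and inside Ciita the regions were shorter and held fewer pairs, their summed difference in CPM was smaller than that of the 2 main elements, and the arms overlapped. Per kilobase the region upstream of Ciita went from 5.03 to 2.70 CPM per kb, the first start from 3.80 to 1.94, the intronic region from 3.92 to 1.68 and the later starts from 2.55 to 0.71, differences below that of the Tvp23a intron and above that of the Nubp1 promoter. The region upstream of Ciita had 4.56 CPM (IZ 2), 13.2 (IZ 3), 8.20 (BZ 2), 13.1 (BZ 3), 10.4 (RZ 2) and 10.8 (RZ 3) in sham. In MI it had 10.5 CPM (IZ 2), 2.81 (IZ 3), 0 (BZ 2), 2.65 (BZ 3), 1.86 (RZ 2) and 14.5 (RZ 3). The groups overlapped, with 4 MI libraries below every sham library and the other 2 among or above them. The means were 10.1 ± 3.28 and 5.40 ± 5.76 CPM, a log2 ratio of -0.90 and 7.74% of the difference, from 33 and 11 pairs. The ratio ran from -1.49, without P10 MI RZ replicate 3, to -0.63 with each library left out, and was -0.41 in the IZ, -3.01 in the BZ and -0.37 in the RZ. The highest MI value, in RZ 3, was 2 pairs of a library with 137589 pairs.

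At the Ciita starts themselves the counts were too small to rank. The first start had 1.90 ± 1.02 CPM in sham and 0.97 ± 1.65 in MI, from 6 and 4 pairs. The intronic region had 1.96 ± 3.09 and 0.84 ± 1.51 CPM, from 5 and 3 pairs. The later starts had 3.83 ± 3.99 and 1.06 ± 1.68 CPM, from 10 and 4 pairs; their log2 ratio was -1.85, but ran from -2.85 to -1.19 with each library left out and turned to 0.59 in the replicates numbered 2 alone, as did that of the intronic region (1.67). Summed, these 3 regions went from 7.69 ± 6.75 CPM (1.3 to 16.3) to 2.87 ± 4.47 (0 to 9.29), lower in MI in 5 of 6 comparisons, with a log2 ratio of -1.42, and held 8.0% of the difference over the locus; the ranges overlapped. With the region upstream, the 4 regions made up 15.7%.

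Counting all pairs, inside and outside regions, gave the following along the chromosome. In the 50 kb before Nubp1 the means were 13.6 ± 6.74 and 11.2 ± 4.61 CPM, or 3.93% of the net difference. From the Nubp1 start to the Tvp23a start the means were 86.2 ± 15.4 and 41.7 ± 15.7 CPM, with no overlap and 73.9% of the net difference. Between the Tvp23a start and the first Ciita start they were 43.6 ± 9.93 and 25.2 ± 12.7 CPM, lower in 6 of 6 comparisons with overlapping ranges, or 30.5%. Over the Ciita gene they were 38.9 ± 18.8 (15.2 to 65.7) and 25.8 ± 13.6 (8.42 to 44.6), lower in 5 of 6, or 21.7%. The difference in the Ciita gene was thus in the same direction, but smaller than the SD within either arm. Per kilobase the difference was 1.26 CPM from Nubp1 to Tvp23a, 0.56 from there to Ciita, 0.27 over Ciita and 0.047 before Nubp1.

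Beyond Ciita the means lay within an SD of each other. The shared Dexi-Clec16a promoter held 24 ± 7.39 CPM in sham (15.8 to 33.4) and 19.1 ± 9.93 in MI (2.11 to 30.9), lower in 4 of 6 comparisons. The Socs1 promoter held 26.9 ± 8.59 (15.2 to 37.5) and 21.8 ± 12.2 (7.76 to 42.2), also lower in 4 of 6, with the highest value of both arms in an MI library, IZ 3. These 2 promoters had log2 ratios of -0.32 and -0.30 and made up 7.99% and 8.47% of the difference. All pairs of Clec16a behind its promoter summed to 46.8 ± 15.1 CPM in sham and 53.8 ± 19.7 in MI, and the stretch behind Clec16a, with Socs1, to 51.6 ± 16.9 and 64.9 ± 21.9. In both stretches the MI mean was the higher one and the ranges overlapped.

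The 5 kb bins describe the same libraries on a grid that ignores the regions. Of the 95 bins, 49 had a lower mean in MI, 44 a higher one and 2 the same. The bin of 10431948 to 10436947, in the Tvp23a intron, went from 22.1 ± 5.05 to 6.06 ± 4.86 CPM, lower in 6 of 6 comparisons and 26.6% of the difference. The bin of the Nubp1 start (10411948 to 10416947) had 16.2 ± 7.37 and 7.18 ± 5.16 CPM, or 15.0% of the difference; it holds the first part of the gene body region as well as the promoter. The bin of the later Ciita starts (10486948 to 10491947) had 9.68 ± 5.19 and 3.80 ± 3.39 CPM, a log2 ratio of -1.35, lower in 5 of 6 comparisons and 9.77% of the difference. The bin of the first Ciita start (10476948 to 10481947) had 10.7 ± 5.54 and 4.98 ± 4.23 CPM, that of the Dexi and Clec16a starts (10541948 to 10546947) 24 ± 7.39 and 19.1 ± 9.93, and that of Socs1 (10781948 to 10786947) 27.7 ± 10.5 and 24.1 ± 16.1. Each of the 10 bins with the highest signal in the locus had the lower mean in MI.

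Read as gene windows (pairs in regions from 50 kb before to 30 kb behind a gene, the span that the study uses for gene activity), the Nubp1 window went from 64.6 ± 10.1 CPM (48.8 to 78.8) to 24.8 ± 11.1 (11.6 to 38.4), a log2 ratio of -1.38 with no overlap. The Ciita window went from 74.7 ± 9.38 (63.9 to 84.1) to 37.7 ± 11 (23.3 to 48.3), a log2 ratio of -0.99, also without overlap. Of its 8 regions the Ciita window shares 3 with the Nubp1 window, the Tvp23a intron among them, so its separation of the arms does not show a difference at Ciita itself. With all pairs in place of pairs in regions the Ciita window overlapped between arms, at 159 ± 28.9 and 105 ± 33.8 CPM. The Dexi window, which holds the 4 Ciita regions and its own promoter, had 41.7 ± 3.20 and 27.4 ± 8.36 CPM without overlap. With all pairs the Dexi window overlapped too, at 100 ± 15.7 and 78.2 ± 23.7 CPM. The Clec16a window (24 ± 7.39 and 19.1 ± 9.93) and the Socs1 window (27.9 ± 8.47 and 23.9 ± 11.6) overlapped, and with all pairs their MI means were higher, 115 ± 29.7 against 102 ± 23.9 and 59.2 ± 20.9 against 48.3 ± 16.4 CPM.

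As background for this comparison, a sham mean at least 1.5 times the MI mean was seen in 12.3% of the 28713 bins tested across the genome, 11.7% of the 11951 regions and 3.24% of the 10191 gene windows. In the locus it was seen in 6 of 9 bins, 3 of 6 regions and 3 of 5 windows that had enough pairs to be tested, and the reverse in none of them. Across the genome the reverse was seen in 12.9% of bins, 8.74% of regions and 2.65% of windows. Since the locus was chosen by this contrast, nothing is read from these counts. No genome-wide share of features without overlap between the arms is given, so nothing is read from a lack of overlap in the locus either.

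**Figure D3:**
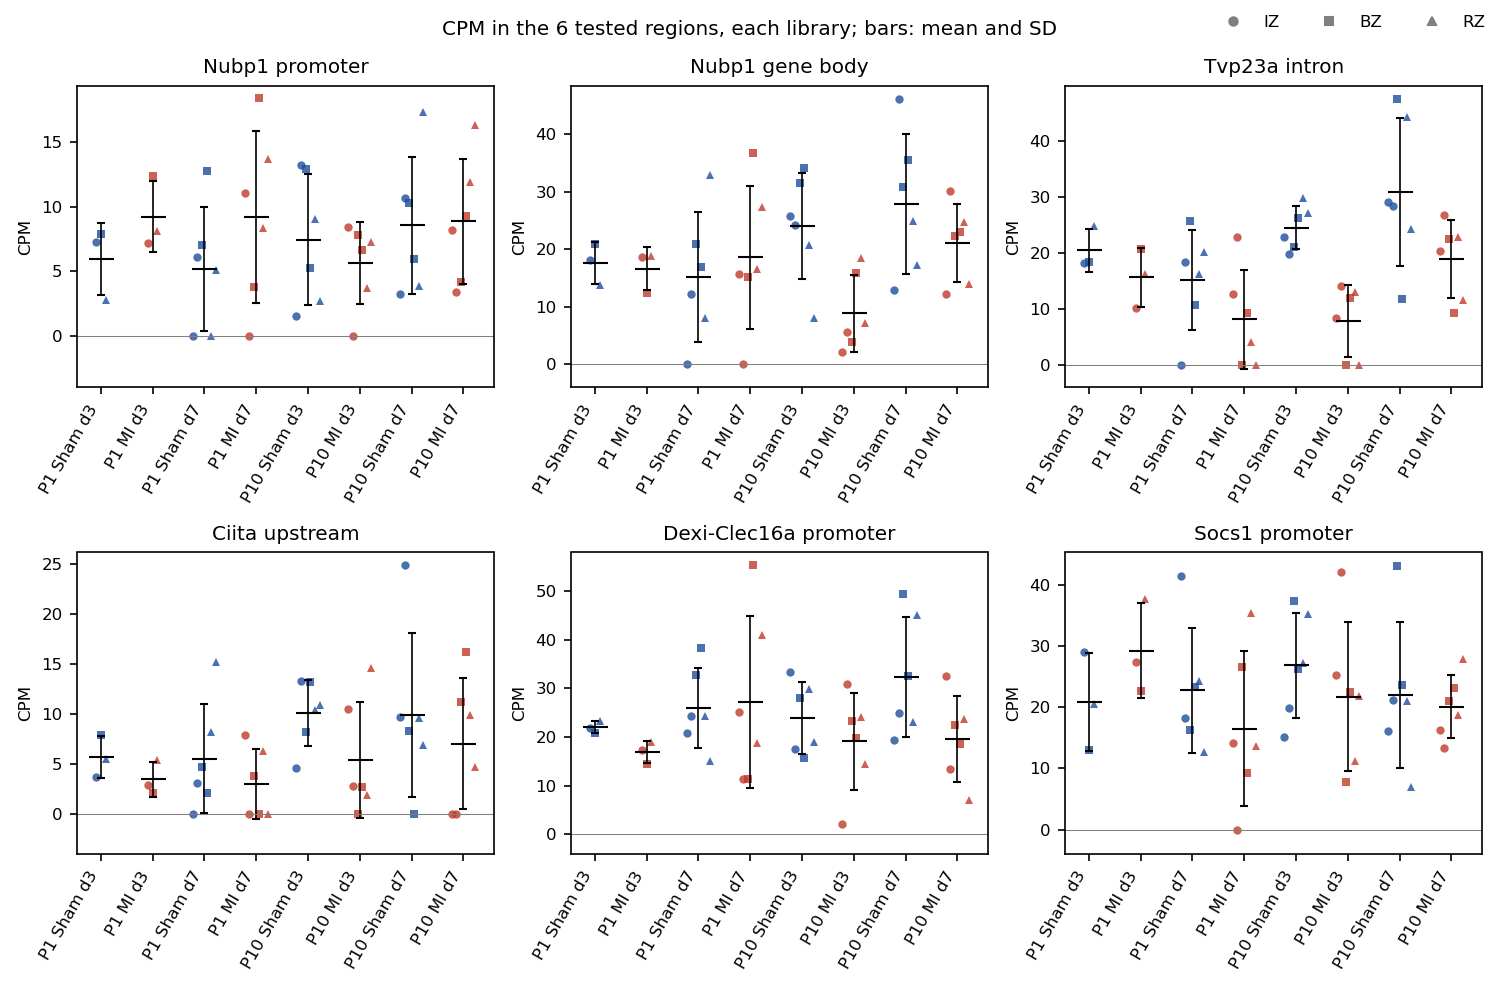
CPM of each library in the 6 regions with enough pairs to be tested, for the 8 arms (age, surgery and day), with the zones as symbols and the mean and SD as bars. The Nubp1 gene body and the Tvp23a intron are low in P10 MI at day 3, at means of 8.89 and 7.90 CPM, the latter next to 8.13 CPM in P1 MI at day 7, and the Dexi-Clec16a and Socs1 promoters have means between 16.5 and 32.4 CPM in every arm.

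Across the 8 arms the Nubp1 window was highest in P10 sham at day 7 (78.1 ± 14.7 CPM, n = 6), followed by P10 sham at day 3 (64.6 ± 10.1) and P10 MI at day 7 (58.4 ± 9.51). The 4 P1 arms lay close together at 45.4 ± 1.71 (sham day 3, n = 3), 43.2 ± 4.20 (MI day 3, n = 3), 41.2 ± 26.5 (MI day 7) and 41.0 ± 22.5 (sham day 7). P10 MI at day 3 was lowest at 24.8 ± 11.1. Of the 7 steps between neighbours in this order, only that from P10 MI at day 7 to P1 sham at day 3, 13.0 CPM, exceeded the larger SD of the 2 arms. The Ciita window also ran from P10 sham at day 7 (89.5 ± 21.9) to P10 MI at day 3 (37.7 ± 11), with no step beyond the SD.

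The other windows followed another order. The Dexi and Clec16a windows were highest in P10 sham at day 7, at 47.9 ± 12.2 and 32.4 ± 12.4 CPM, and lowest in P1 MI at day 3, at 23.8 ± 5.63 and 16.9 ± 2.28 (n = 3). The Socs1 window was highest in P1 MI at day 3, at 32.3 ± 4.82 (n = 3), and lowest in P1 MI at day 7, at 19.0 ± 13.3. No step between neighbouring arms exceeded the SD in these 3 windows.

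At P10 day 7, when the same comparison of MI with sham uses libraries outside the choice of the locus, no element passed the test. The test can miss differences of this size. On simulated data it recovered a 2-fold change in 25.8% of regions, 4.55% of bins and 57.6% of windows in this comparison. The simulated counts held counting noise and a pool effect, but no further spread between libraries. Recovery in the real libraries can therefore be lower than these shares. Of the 6 regions 5 had a fitted value below 0, where the median of all 11951 regions was -0.18. The Tvp23a intron had 30.8 ± 13.1 CPM in sham (lowest 11.8, median 28.7, highest 47.3) and 18.9 ± 6.90 in MI (9.25, 21.4 and 26.8). Its groups overlapped, and the fitted log2 difference was -0.64 with a standard error (SE) of 0.45, an interval of 2 SE from -1.54 to 0.26 (adjusted p = 1.0 in limma voom). The Nubp1 gene body had 27.9 ± 12.2 CPM in sham (12.9, 27.9 and 46.1) and 21.1 ± 6.80 in MI (12.2, 22.7 and 30.2), a log2 difference of -0.30 (SE 0.45, interval -1.19 to 0.59). The interval of each holds 0, and whether the response differs between days 3 and 7 was not tested.

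None of the remaining elements passed at P10 day 7 either. The Nubp1 promoter had 8.54 ± 5.33 CPM in sham and 8.86 ± 4.85 in MI, a log2 difference of 0.04 (SE 0.61). The region upstream of Ciita had 9.88 ± 8.16 CPM in sham and 6.99 ± 6.54 in MI, a log2 difference of -0.50 (SE 0.60). The Dexi-Clec16a promoter had 32.4 ± 12.4 CPM in sham (19.3, 28.7 and 49.4) and 19.6 ± 8.87 in MI (6.99, 20.4 and 32.6), a log2 difference of -0.67 (SE 0.45). The Socs1 promoter had 22.1 ± 12.0 and 20.1 ± 5.15 CPM, a log2 difference of -0.11 (SE 0.46, interval -1.04 to 0.82). Adjusted p was 1.0 for each of these elements, and the Nubp1 and Ciita windows had log2 differences of -0.40 (SE 0.37) and -0.52 (SE 0.36).

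**Figure D4:**
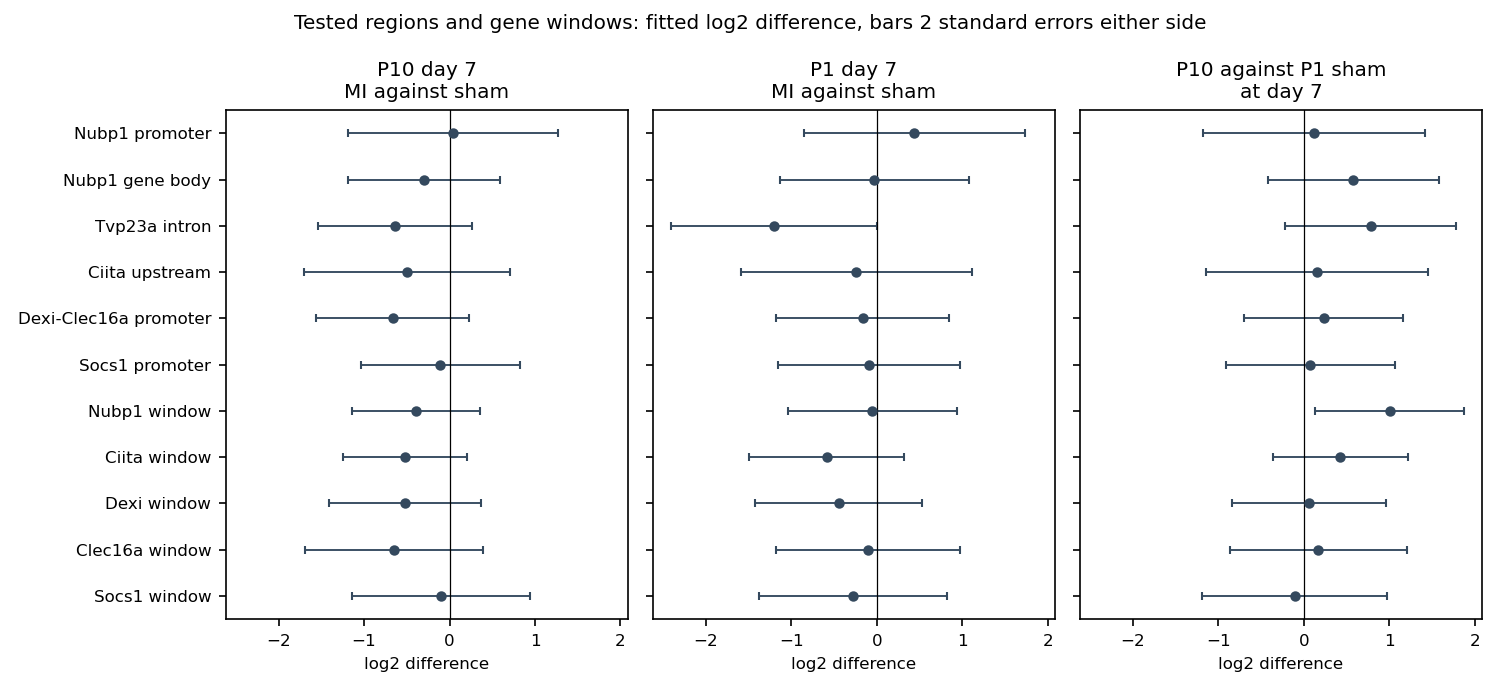
Fitted log2 difference, with bars of 2 SE either side, of the 6 tested regions and 5 gene windows, for MI against sham at P10 day 7 and at P1 day 7 and for P10 against P1 sham at day 7. Every bar crosses 0 apart from that of the Nubp1 window between P10 and P1 sham (1.00, from 0.13 to 1.87), and no element passed after adjustment.

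In P1 hearts at day 3 each group has 1 library, so the test borrows its spread from the other groups. The Nubp1 gene body had 18.2 (IZ), 20.9 (BZ) and 13.8 CPM (RZ) in sham and 18.8, 12.4 and 18.9 in MI. The Tvp23a intron had 18.2 (IZ), 18.3 (BZ) and 24.8 CPM (RZ) in sham and 10.1, 20.6 and 16.2 in MI. Both sets of values overlapped, and the fitted log2 differences were -0.07 (SE 0.64, interval -1.36 to 1.22) and -0.40 (SE 0.65, interval -1.70 to 0.89). At P1 day 7 the Tvp23a intron had 15.2 ± 8.92 CPM in sham (0, 17.3 and 25.7) and 8.13 ± 8.78 in MI (0, 6.69 and 22.8). Its log2 difference of -1.20 (SE 0.60) had an unadjusted p of 0.0482 and an adjusted p of 0.993 in limma voom. The Nubp1 gene body had 15.2 ± 11.3 and 18.6 ± 12.5 CPM, a log2 difference of -0.03 (SE 0.55). Its mean was thus higher in MI while the fitted value lay just below 0. The median fitted value of all tested regions in this comparison was -0.26. The 3 regions at and inside Ciita, too low to be tested, had 11.9 ± 8.82 CPM in P1 sham at day 7 (26 pairs) and 3.01 ± 3.48 in MI (8 pairs). The whole locus had 304 ± 55.3 and 222 ± 75 CPM there, a larger difference of the means than at P10 day 3, with overlapping ranges (240 to 374 and 114 to 306). The response to MI at day 7 did not differ between P10 and P1 beyond its error in any element, with log2 differences of responses of 0.56 (SE 0.75) for the Tvp23a intron and -0.26 (SE 0.71) for the Nubp1 gene body.

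Between ages, the mean Nubp1 signal was higher in the sham hearts of P10, without passing the test after adjustment. By the read names, the most frequent sequencing flow cells of the day 7 sham libraries numbered 2 differed between the ages. Those numbered 1 shared only part of theirs. Age and sequencing run can therefore not be told apart in the libraries numbered 2. At day 7 the Nubp1 window had 78.1 ± 14.7 CPM in P10 sham (62.4, 77.7 and 101) and 41.0 ± 22.5 in P1 sham (0, 48.4 and 63.2), the ranges touching at their ends. The log2 difference was 1.00 (SE 0.43, interval 0.13 to 1.87), with an unadjusted p of 0.0215 and an adjusted p of 0.591 in limma voom. The call depends on the fit: with the replicate number as a block the log2 difference was 1.02 and the adjusted p 0.00338, where 1664 of the 10191 windows were called. The library at 0 is IZ replicate 1 of P1 sham, which has 48077 pairs in all, so that a count of 0 there allows up to 62.4 CPM. The Tvp23a intron and the Nubp1 gene body had log2 differences of 0.78 (SE 0.50) and 0.58 (SE 0.50) in the same comparison, and the Ciita window 0.43 (SE 0.39). A summed list of 5 resident macrophage markers (Lyve1, C1qa, Mgl2, Fcrls and Cbr2), none of them at 0, stood at 690 to 1033 CPM in P10 sham and 228 to 508 in P1 sham at day 7. C1qa and Mgl2 passed the test there (adjusted p = 0.0301 and 0.0494 in limma voom), among 10 windows called in this comparison. Calls numbered 40 with zones summed, 232 without the pool block and 528 with another library size, but limma-trend called 0 windows. On simulated data the voom fit called more unchanged features than its threshold allows. The 2 calls are therefore uncertain, and the part of this list in the Nubp1 difference was not tested.

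Within P10 MI hearts at day 7, the region upstream of Ciita was at 0 in both IZ libraries and at 9.91 and 4.66 CPM in the RZ libraries. The fitted log2 difference was -2.18 (SE 0.89), with an unadjusted p of 0.015 and an adjusted p of 0.668 in limma voom. The fold of a region at 0 in 1 zone depends on the fit and is no measure of size. The other regions had log2 differences between -1.0 (Nubp1 promoter, SE 0.85) and 0.49 (Dexi-Clec16a promoter, SE 0.68).

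In the 6 tested comparisons no bin, region or member window of the locus was called at an adjusted p of 0.05 in limma voom without a replicate block, and none was called by limma-trend. For MI against sham at P10 day 7 the genome-wide background was also 0.0% of 28713 bins, 0.0% of 11951 regions and 0.0% of 10191 windows, with 760, 270 and 51 features at an unadjusted p under 0.05, none of them in the locus. For P1 day 7 it was 0.0%, 0.0% and 0.0%, with 1196, 490 and 273 features under 0.05, of which 1 bin and 1 region of the locus. For P1 day 3 it was 0.0% in all 3 kinds, with 227, 61 and 0 features under 0.05 and none in the locus. For the difference of the responses it was 0.0% in all 3 kinds, with 569, 187 and 47 under 0.05 and none in the locus. Between P10 and P1 sham 0.00697% of bins, 0.469% of regions and 0.0981% of windows were called, with 3019, 1260 and 720 under 0.05, of which the Nubp1 window alone is in the locus. Between IZ and RZ 0.00348% of bins, 0.0% of regions and 0.0% of windows were called, with 1809, 733 and 450 under 0.05, of which 1 bin and 1 region of the locus. So the absence of calls in the locus is read against backgrounds at or near 0.

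The genes that work with the members were read in the same libraries. Of 10 MHC class II genes, the targets of Ciita, 0 were called in any of the 6 tested comparisons by limma voom, with 0 at an unadjusted p under 0.05. At P10 day 3 all 10 had a lower mean in MI, with a median log2 ratio of -0.22 beside -0.03 over all windows. This direction was not seen throughout at P10 day 7, where H2-Aa had 24.4 ± 11.9 CPM in sham and 40.6 ± 9.98 in MI (fitted log2 difference 0.76), H2-Eb1 a log2 difference of 0.56 and H2-Ab1 of 0.19, none of them called. The lowest ratios at day 3 were those of H2-Aa (24.9 ± 12.9 to 14.6 ± 4.25 CPM) and H2-Ab1 (43.3 ± 13.3 to 26.4 ± 8.01), the 2 chains of the classical molecule I-A; H2-Ab1 was lower in 6 of 6 matched comparisons, as was H2-Eb2 (62.1 ± 21.5 to 40.5 ± 12.0). Cd74, the invariant chain, had 167 ± 24.8 and 145 ± 41.9 CPM. Neighbouring H2 genes share windows, and H2-DMa, H2-DMb1, H2-DMb2 and H2-Oa had log2 ratios of -0.01 to -0.04.

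The partners and inducers of Ciita gave no call either in the 6 tested comparisons, and 10 of 12 had enough pairs. Of these, 7 had a lower and 3 a higher mean in MI at P10 day 3. Creb1, a factor of the MHC class II enhanceosome, had 88.6 ± 19.4 and 60.8 ± 29.4 CPM, Nfya, another such factor, 72.0 ± 12.4 and 58.4 ± 16.9 (lower in 6 of 6), and Irf8, a macrophage lineage factor, 365 ± 51.8 and 295 ± 92.9. Rfxank, a subunit of the RFX complex, was among the higher ones at 38.0 ± 7.57 and 46.7 ± 12.4 CPM.

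Of the interferon gamma and JAK-STAT genes around Socs1, 11 of 12 were tested and 0 called in the 6 comparisons. Of these, 9 had a higher and 2 a lower mean in MI at P10 day 3, with a median log2 ratio of 0.11. Socs3, a feedback inhibitor of the same family as Socs1, had 373 ± 81.9 CPM in sham and 491 ± 117 in MI. It was higher in MI in 6 of 6 comparisons. The Socs1 window was lower in MI in 4 of 6 with pairs in regions and in 3 of 6 with all pairs. The 2 genes were not compared by a test. Jak2 had 32.1 ± 8.08 and 49.3 ± 26.2 CPM and Cish, another member of that family, 215 ± 41.8 and 271 ± 116. Of the iron-sulfur genes around Nubp1, 6 of 7 were tested, with 0 calls and 3 means lower and 3 higher at P10 day 3, and of the mitophagy partners of Clec16a 3 of 4, with 0 calls, 2 lower and 1 higher.

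Marker lists of other cells were summed in the same libraries, counting pairs in regions. At P10 day 3 the summed signal of 7 genes of S100a9 monocytes or neutrophils (Cd177 without a pair in regions) ranged from 160 to 286 CPM in sham and 221 to 692 in MI. Resident macrophage markers ranged from 345 to 1027 in sham and 194 to 865 in MI, with all 5 means lower in MI. The list of MHC class II macrophages (H2-Aa, H2-Eb1, H2-Ab1 and Cd74) ranged from 202 to 341 and 120 to 269 CPM, and 5 B cell genes from 201 to 273 and 193 to 298. The 4 other lists of leukocytes were classical monocytes (199 to 342 and 257 to 331 CPM), Ly6c-low monocytes (360 to 555 and 371 to 650), Arg1 macrophages (139 to 189 and 177 to 323, Spp1 without a pair in regions) and dendritic cells (304 to 465 and 262 to 377). The ranges overlapped in each list. With all pairs in the windows those of the Arg1 macrophage list did not, at 304 to 370 CPM in sham and 414 to 720 in MI, and Spp1 had means of 16.5 and 51.5 CPM. In the 6 tested comparisons, C1qa and Mgl2 between ages were the only limma voom calls among the 10 marker lists. The part of these cells in the lower signal of the Nubp1 gene body and the Tvp23a intron was not tested.

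The gene windows whose 24 group means ran most like Nubp1 on the log2(CPM + 1) scale were those of Sec1 (Pearson r = 0.81), Eng (0.80), Adrb1 (0.80), Cep76 (0.77) and Gm20662 (0.77), leaving out windows within 1 Mb. Within the locus r was 0.83 for Ciita, which shares 3 of its regions, 0.55 for Dexi, 0.41 for Clec16a and 0.03 for Socs1. For Ciita the most alike were Adrb1 (0.79), Nfkbiz (0.77), Kbtbd11 (0.76), Vsx1 (0.75) and Eps8l1 (0.75). Within the locus its r was 0.83 for Dexi, whose 5 regions all lie in the Ciita window, and -0.07 for Socs1. These values describe group means that share pools and depths, and carry no test.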

How the data were processed

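H3K27ac was mapped with CoBATCH, a form of ChIP-seq on single cells in which antibody-bound transposase cuts and tags marked chromatin. The authors demultiplexed and trimmed reads (Cutadapt), used Bowtie2 and the mm10 genome, discarded poorly mapped reads (Samtools) and duplicates (Picard), filtered cells, and deposited aligned reads whose score column is the mapping quality. MACS2 2.2.7.1 and deepTools stand in the submitters' processing notes. The deposited reads name no cell, so each library was summed and single cells, which the study tested, were not analysed here. Another 6 labelled samples were not analysed here. Titles, not the treatment field, set MI apart from sham.

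Unique read pairs were counted by read name after repeated lines were dropped. The 18 libraries of replicate number 2 held 9.67% to 32.2% of such lines, and the others held none. In these 18 libraries 7.30% to 29.6% of the names counted as a pair had only 1 line left, a single read. The others had no such names. Counting used 5 kb bins, H3K27ac regions and gene windows (50 kb before to 30 kb behind, GENCODE M21). Regions were 500 bp windows at 4 times the mean or more, merged within 1000 bp. CPM is per 1000000 pairs of the library. Floors for a count of 0 cover counting of pairs only, whereas SD and SE measure the spread between libraries. Tests used limma 3.58.1 voom (R 4.3.3), two-sided, over all 42 libraries with 24 group means, pool as a random block and Benjamini-Hochberg adjustment over all features of a kind with a mean of at least 3 pairs (10 for gene windows), at 0.05. On simulated data this fit called more unchanged well-covered features than the threshold allows, and a fit on summed pools fewer. Alternatives were another library size, filter, grid, region threshold, limma-trend, zones summed, no pool block, the replicate number as a block and each library left out. Members and lists were chosen with earlier results of these data known. Named were the members, all regions of the locus, the bins of member starts and the 10 highest bins, fixed gene lists, and the 5 windows most alike. Tables used Python 3.11.15, numpy 2.4.6 and pandas 2.3.3.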

Additional observations from a re-analysis of the deposited data

Results flagged for a closer look

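Of 108 sets of 6 libraries, 11 held a highest or lowest library that stood apart from the others by Dixon's criterion. Its usual chance rate of about 1 in 20 does not hold for counts this small, so no excess is read from these 11 sets. In 10 of the 11 sets the value was 1 to 4 read pairs. In the single regions they were, for the small intronic region of Tvp23a, 27.6 CPM (3 pairs) in P1 MI day 7 BZ replicate 2 and 8.42 CPM (4 pairs) in P10 MI day 3 IZ replicate 2. For the region upstream of Tvp23a and for the first Ciita start it was 1.58 CPM (1 pair) in P1 MI day 7 IZ replicate 1. For the Ciita intron they were 3.80 CPM (1 pair) in P1 MI day 7 BZ replicate 1, 8.14 CPM (1 pair) in P1 sham day 7 RZ replicate 1, 3.72 CPM (2 pairs) in P10 MI day 3 RZ replicate 2 and 7.88 CPM (3 pairs) in P10 sham day 3 BZ replicate 3. For the Rmi2 start it was 2.80 CPM (2 pairs) in P10 MI day 7 BZ replicate 1.

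The other 2 were gene windows. The Nubp1 window stood at 92.1 CPM (10 pairs) in P1 MI day 7 BZ replicate 2, where the other 5 libraries held 19.0 to 41.0 CPM. The Ciita window stood at 20.8 CPM (1 pair) in P1 sham day 7 IZ replicate 1, the shallowest library, where the other 5 held 65.1 to 80.8 CPM.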

How the results depend on the processing

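Of 339 alternative values of the counts of calls in the locus, 338 were 0. The exception was the fit with the replicate number as a block. Between P10 and P1 sham it called 1 member window, Nubp1 (log2 difference 1.02, adjusted p = 0.00338 in limma voom), among 1664 windows in all. This block changed no other call in the locus. Deviations of same-numbered libraries correlated at -0.121 to 0.0842 over the regions. On counts this sparse, the correlations cannot show whether a batch follows the number. The sequencing flow cells in the read names did follow it. Within each age and day with replicates, MI and sham libraries of the same number shared flow cells. Libraries of different numbers had none in common among the most frequent flow cells of each. The main fit had no term for the number. The study treated its biological replicates as batches. All libraries numbered 2 held repeated lines and no others did, so the number marks a technical difference between libraries. Over all windows P10 against P1 sham gave 10 calls. It gave 528 with another library size, 232 without the pool block, 40 with zones summed and 0 by limma-trend. In the same order the counts were 56 for regions (450, 324, 124 and 12) and 2 for bins (523, 316, 39 and 1), with 892 regions and 1155 bins under the replicate block. At P1 day 7, 0 windows became 96 with the replicate block. The cause was not tested.

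Directions turned as follows. At P10 day 7, counting all pairs gave log2 differences of 0.087 for the Dexi window, 0.21 for Clec16a and 0.30 for Socs1. Leaving out each library gave -0.34 to 0.29 for the Nubp1 promoter, -0.28 to 0.14 for the Socs1 promoter and -0.30 to 0.10 for the Socs1 window. At P10 day 3, replicates numbered 2 alone gave 0.36 for the small Tvp23a intronic region, 1.67 for the Ciita intron and 0.59 for the later Ciita starts. Replicates numbered 3 alone gave 0.32 for the Dexi-Clec16a promoter and the Clec16a window, 0.088 for the Socs1 promoter and 0.19 for the Socs1 window. The IZ alone gave 2.47 for the small Tvp23a intronic region, 0.94 for the Socs1 promoter and 0.80 for the Socs1 window, and the RZ alone 0.45 for the Ciita intron. The Ciita intron ran from -2.89 to 0.11 with each library left out, the latter without P10 sham day 3 BZ replicate 3. The Nubp1 window stayed between -1.55 and -1.15 and the Ciita window between -1.09 and -0.77 with pairs in regions; counting all pairs gave -0.93 and -0.60, and 0.17 for Clec16a and 0.29 for Socs1, which turned. Depth limits the Ciita regions at and behind its starts, which had 10 pairs or fewer each per arm at P10 day 3. Leaving out libraries was not run for P1 day 3, and the zone contrast could not be fitted with zones summed.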
